A study of Mus musculus with 10 samples.

Results

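The genes of transforming growth factor β (TGF-β), bone morphogenetic protein (BMP) and activin signalling were followed in AtT20 cells with and without knockdown of *Creb3l1*. A list of 50 genes was used, out of 53801 in the count table, chosen by name for their place in the pathway. They encode ligands, latent TGF-β binding proteins, antagonists, receptors, SMADs, SMAD ligases and corepressors, and ID targets. Earlier results of these data were known when the list was made. All 50 were matched to an Ensembl gene. AtT20/D16v-F2 is a mouse line of anterior pituitary corticotroph tumour cells that makes pro-opiomelanocortin, the precursor of adrenocorticotrophic hormone. Both groups were stable lines made with a lentivirus, one expressing a non-targeting control shRNA and the other an shRNA against *Creb3l1*, and the labels name no other treatment. Poly(A) RNA of 5 libraries of each line was sequenced. Each group is therefore 1 line with 1 hairpin, so an effect of *Creb3l1* and any other difference between the 2 lines cannot be told apart, and p-values measure the spread between libraries of a line, which the study describes as biological replicates.

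Ligands of this family are secreted dimers that bring together type II and type I receptors, which are serine/threonine kinases. TGF-β and activin receptors phosphorylate the receptor SMADs encoded by *Smad2* and *Smad3*, and BMP receptors phosphorylate those encoded by *Smad1*, *Smad5* and *Smad9*. Both kinds enter the nucleus with SMAD4, the common partner. The ID proteins, which block basic helix-loop-helix factors, are classic targets of the BMP branch. In corticotrophs BMP4 and activin are known to lower transcription of *Pomc*.

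Promoter windows from RefSeq (GRCm38.p6, 250 bases before to 50 bases after an annotated start) were at hand for 38 of the 50 genes, and 4 of them are shown for the genes to which the results return. *Smad3* had the largest decrease of the 50, *Ltbp2* a large increase and *Id3* is an ID target that rose, while *Fstl3* is shown for a word in its sequence. Capitals mark matches, on either strand, to the G-box core GACGTG, the short SMAD box CAGAC and the GC-rich SMAD box GGCGCC. No marked word overlapped another in these windows.
Smad3 (chr9:63757945-63758244, minus strand): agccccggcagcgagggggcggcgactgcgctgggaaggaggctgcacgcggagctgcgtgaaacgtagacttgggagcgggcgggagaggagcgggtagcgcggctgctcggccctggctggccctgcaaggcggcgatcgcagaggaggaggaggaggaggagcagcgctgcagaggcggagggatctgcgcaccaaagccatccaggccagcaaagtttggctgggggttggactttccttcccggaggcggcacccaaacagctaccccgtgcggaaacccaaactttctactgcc
Ltbp2 (chr12:84876442-84876741, minus strand): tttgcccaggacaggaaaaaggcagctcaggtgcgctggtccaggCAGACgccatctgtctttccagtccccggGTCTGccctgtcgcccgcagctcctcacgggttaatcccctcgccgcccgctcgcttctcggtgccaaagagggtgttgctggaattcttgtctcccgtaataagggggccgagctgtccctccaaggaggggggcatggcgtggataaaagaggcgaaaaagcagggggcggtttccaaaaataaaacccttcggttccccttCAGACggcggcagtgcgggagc
Id3 (chr4:136143572-136143871, plus strand): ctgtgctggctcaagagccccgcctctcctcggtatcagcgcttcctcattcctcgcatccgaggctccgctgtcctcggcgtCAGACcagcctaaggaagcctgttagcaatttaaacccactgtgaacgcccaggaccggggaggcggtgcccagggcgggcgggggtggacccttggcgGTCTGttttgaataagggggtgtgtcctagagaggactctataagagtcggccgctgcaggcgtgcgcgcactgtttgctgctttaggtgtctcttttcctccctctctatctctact
Fstl3 (chr10:79777024-79777323, plus strand): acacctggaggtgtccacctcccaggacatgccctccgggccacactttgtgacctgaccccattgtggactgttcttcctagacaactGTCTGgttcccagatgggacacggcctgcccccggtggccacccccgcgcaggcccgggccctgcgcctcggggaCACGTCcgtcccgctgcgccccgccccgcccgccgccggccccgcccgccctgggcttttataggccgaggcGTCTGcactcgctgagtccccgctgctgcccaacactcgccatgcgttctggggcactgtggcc
The *Smad3* window, with a GC content of 67.7%, held none of the words. The window of *Ltbp2* held 3 short SMAD boxes and that of *Id3* held 2. *Fstl3* was the only gene called as different between the lines, of the 18 with a window, whose window held the G-box core, on the minus strand. The core was present in 3 of the 38 genes with a window (*Fstl3*, *Ltbp1* and *Smad6*) and in 6.38% of all 32851 windows. The short SMAD box was present in 21 of the 38 genes and 49.6% of all windows, and the GC-rich box in 13 of the 38 genes and 11.9% of all windows. Several genes have more than 1 window, so shares of genes and of windows are not the same measure.

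The libraries held from 17420698 to 22205107 counted reads. *Creb3l1* itself was between 3531 and 3864 normalised counts in the non-targeting line and from 1014 to 1159 in the knockdown line. A normalised count is the count of a library scaled by its effective size, with factors from edgeR's TMM method. One library, non-targeting shRNA replicate 3, stood apart with 4.13% of its counts on a single non-coding gene, *Gm42418*, against 0.106% to 0.191% in the other 9, and counts of calls are therefore also given without it. All 5 corticotroph markers had counts. Their sum was lower in the knockdown line, between 107603 and 114342 normalised counts against 149459 to 160718. Most of it was *Pomc*, at means of 131411 in the control and 92045 in the knockdown line. *Pomc*, *Tbx19* and *Pcsk1* were called lower, *Neurod1* was called higher and *Crhr1* was not called. The study itself reports no change of *Pomc* mRNA in its knockdown lines by quantitative PCR. In bulk samples, fewer cells of a type and less RNA per cell cannot be told apart. The summed markers of other pituitary hormone cells were at most 1.88 and those of macrophages and leukocytes at most 1.06 in any library. The 5 fibroblast markers summed to between 814 and 1153 in the control and between 943 and 1681 in the knockdown libraries, nearly all from *Col1a1* and *Col1a2*, with *Lum* at 0 in every library and 1 read of *Dcn* in all 10. The 3 endothelial markers summed to between 10.6 and 18.3 and between 4.28 and 7.45, with *Cdh5* and *Kdr* at 0. The part of these shifts in the results was not tested.

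Most of the pathway genes that could be tested differed between the lines, by small amounts and mostly upwards. Of the 50 genes, 35 had enough counts for the test, and 26 of these (74.3%) passed the threshold, an adjusted p under 0.01 by the quasi-likelihood test of edgeR and the Benjamini-Hochberg method over all 14336 genes tested. The same threshold was passed by 40.7% of all genes tested. *Creb3l1* knockdown cells had higher counts for 20 of the 26 genes (57.1% of those tested, against 20.6% of all genes) and lower counts for 6 (17.1%, against 20.1%). The median log2 fold change of the 35 genes was 0.19 and that of all genes tested was -0.0025. The median size of change, irrespective of sign, was 0.28 for the 35 and 0.15 for all genes. For 25 of the 35 genes (71.4%) no library of one line lay within the range of the other, where this held for 36.0% of all genes. Changes of at least 1.5-fold were called for 5 genes, *Smad3*, *Ltbp4*, *Tgfb3*, *Ltbp2* and *Bmp7*, which is 14.3% of those tested against 7.73% of all genes.

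The share of genes called rose with the mean count, so the pathway genes were also set beside genes of similar counts. When all genes tested were divided by mean count into 4 bins of 3584, 4 of the 6 pathway genes in the lowest bin were called, against 21.2% of that bin. In the next bin 5 of 8 were called against 38.2%, in the one above it 11 of 14 against 47.4%, and in the highest 6 of 7 against 56.0%. Without non-targeting shRNA replicate 3, 28 pathway genes were called, *Inha* and *Smad5* being added and none of the 26 lost.

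**Figure D1:**
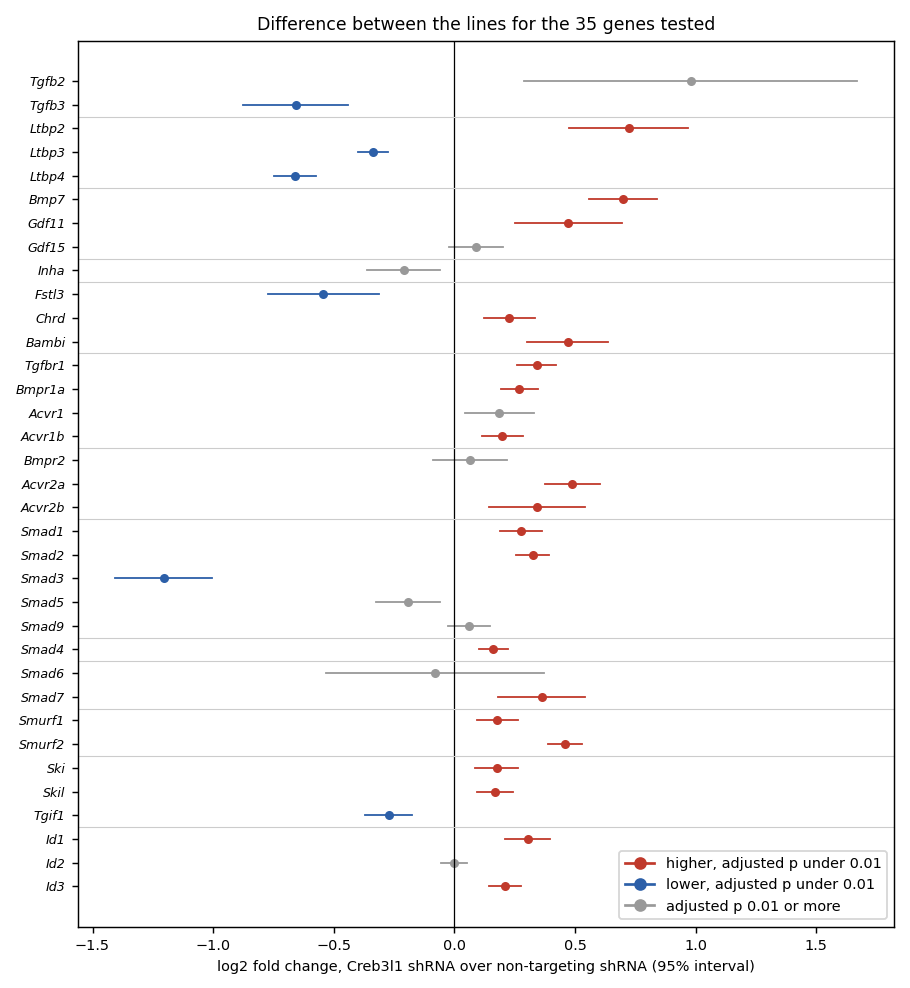
The log2 fold change of each of the 35 genes tested, *Creb3l1* shRNA over non-targeting shRNA, is plotted with its 95% interval, in the order of the genes' roles, with red for genes called higher, blue for genes called lower and grey for the rest. *Smad3* lies furthest to the left at -1.21, and most receptor, SMAD and ligase genes lie between 0 and 0.5.

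The levels of the genes, compared as RPKM, reads scaled to exon length and to library size, ran over several orders of magnitude. The ID targets were highest in the control line, at 90.9 ± 5.93 (SD, n = 5) RPKM for *Id1*, 75.2 ± 1.30 for *Id2* and 54.3 ± 1.73 for *Id3*, and the ranges of these 3 genes over the libraries did not overlap. *Smad4* followed at 29.3 ± 0.602 and *Gdf15* at 17.2 ± 1.19. The BMP type I receptor gene *Bmpr1a*, at 13.6 ± 0.608, was the highest of the receptor genes. *Ltbp3* (12.7 ± 0.391) and *Ski* (12.1 ± 0.924) were next to it and to each other within their spread. At the other end, 15 genes were not tested for lack of reads. No read was counted in any library for *Bmp2*, *Bmp4*, *Inhbb* or *Nog*, which allows up to 3 reads in the 202795971 of all libraries together (counting error only). The other 11, *Tgfb1*, *Ltbp1*, *Bmp6*, *Bmp8a*, *Inhba*, *Fst*, *Grem1*, *Bmpr1b*, *Tgfbr2*, *Tgfbr3* and *Id4*, had at most 84 reads over the 10 libraries together. Reads for the TGF-β type II receptor gene *Tgfbr2* were 2, 4, 2, 4 and 3 in the control and 2, 3, 8, 2 and 5 in the knockdown libraries. *Id4* had 1 read in each of 2 libraries of each line.

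**Figure D2:**
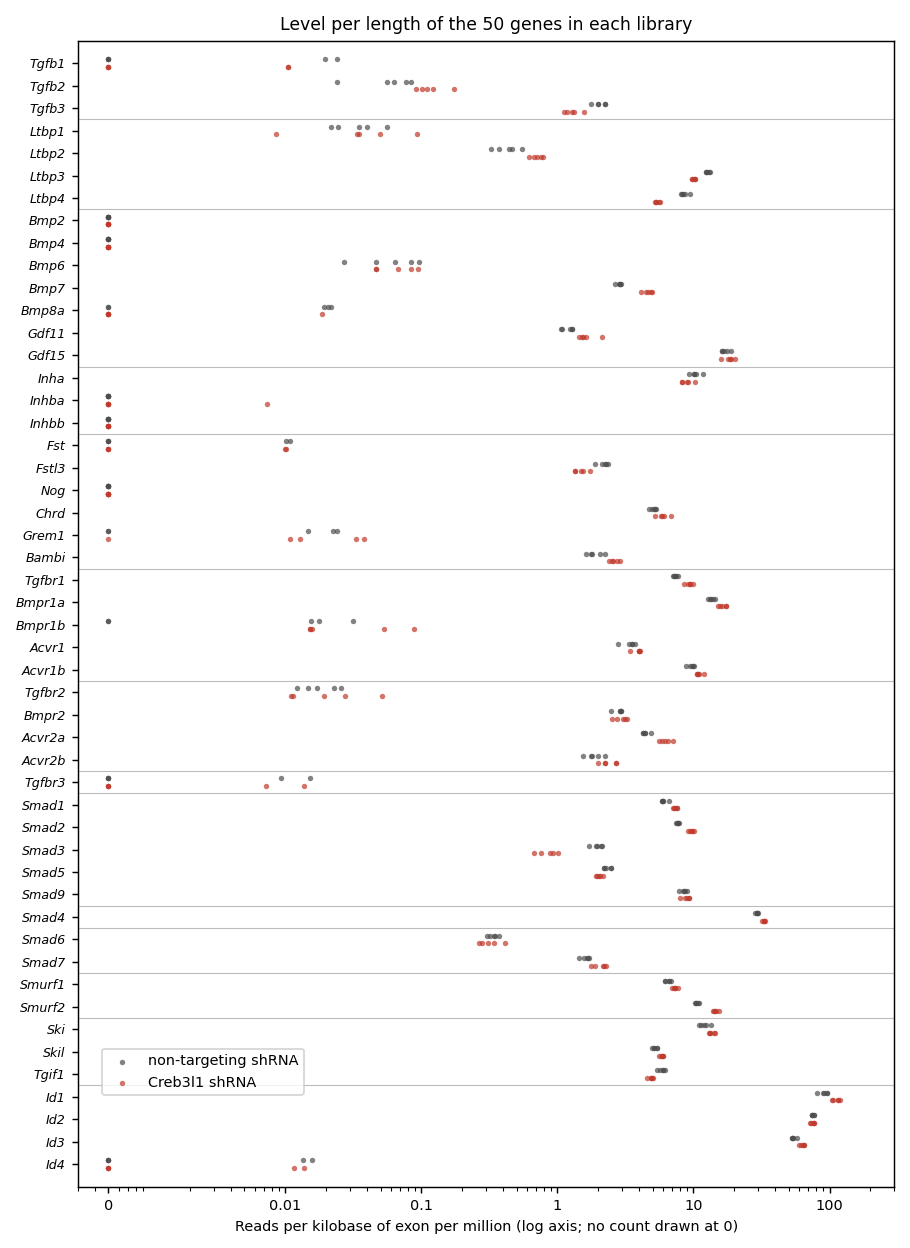
The level of each of the 50 genes in RPKM is shown on a log axis, with 1 point per library, grey for non-targeting shRNA and red for *Creb3l1* shRNA, and a library without a count drawn at 0. The points of *Id1*, *Id2* and *Id3* lie furthest to the right, while *Bmp2*, *Bmp4*, *Inhbb* and *Nog* have all their points at 0.

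Of the TGF-β ligand genes, only *Tgfb3* was well above detection, and it was lower in *Creb3l1* knockdown cells. *Tgfb3* (ENSMUSG00000021253, chromosome 12 of GRCm38 from 86056745 to 86079041, minus strand) was at 153, 154, 136, 120.2 and 137 normalised counts in non-targeting replicates 1 to 5. In knockdown replicates 1 to 5 it was at 79.9, 108.1, 88.3, 76.7 and 90.9. No knockdown library reached the lowest control library, and the difference was a log2 fold change of -0.66 (standard error, SE, 0.11, adjusted p = 2.1e-06). *Tgfb2* had between 3 and 9 reads in the control and between 10 and 19 in the knockdown libraries, and its log2 fold change of 0.98 (95% interval 0.29 to 1.67) did not pass the threshold (adjusted p = 0.015), although the lines did not overlap. *Tgfb1* had 6 reads in all.

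Some of the latent TGF-β binding proteins tether the inactive ligand to the matrix, and the genes of the family that were tested moved in both directions. *Ltbp4* (ENSMUSG00000040488, chromosome 7 from 27305136 to 27337692, minus strand) was at 1236, 1101, 1058, 1079.8 and 1136 normalised counts in the control libraries and at 684, 741, 699, 691 and 735 in the knockdown libraries. The gap between the lines was several times the spread within either, and the log2 fold change was -0.66 with a SE of 0.043 (adjusted p = 1.6e-16). *Ltbp3*, the most abundant of the *Ltbp* genes per length, was at 2373, 2431, 2311, 2259 and 2272 in control and at 1798, 1873, 1886, 1807 and 1860.3 in knockdown libraries. It fell by 20.8%, a log2 fold change of -0.34 (SE 0.031). *Ltbp2*, the only one of the 3 *Ltbp* genes tested that rose, was at 61.4, 54.0, 90.5, 73.2 and 77.3 in control and at 101.98, 117, 127, 129.8 and 112 in knockdown libraries. Its log2 fold change was 0.72 (SE 0.12, adjusted p = 3.5e-06), and its lines did not overlap. Because of their different levels, *Ltbp2* made up 1.99% ± 0.439 (SD, n = 5) of the summed level per length of the *Ltbp* genes in the control. In the knockdown libraries its share was 4.36% ± 0.403. The share of *Ltbp3* was 58.4% ± 1.39 in the control and 61.9% ± 0.518 in the knockdown libraries. *Ltbp1* had between 2 and 19 reads per library.

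Among the BMP and growth differentiation factor ligand genes, *Bmp7* and *Gdf11* rose. *Bmp7* (ENSMUSG00000008999, chromosome 2 from 172868012 to 172940321, minus strand), a BMP ligand first known from bone and kidney, was at 215, 233, 234, 239 and 231 normalised counts in control libraries. It was at 333, 376, 403, 362 and 398 in knockdown libraries. The lowest knockdown library was thus well above the highest control library, a 1.62-fold increase with a log2 SE of 0.070 (adjusted p = 3.5e-11). *Gdf11*, which encodes a close relative of myostatin, was at 104.6, 105.97, 86.8, 101.4 and 89.6 in control and at 174, 126, 134, 125 and 119 in knockdown libraries. Its log2 fold change was 0.47 (SE 0.11, adjusted p = 0.00036), and the highest value, in *Creb3l1* shRNA replicate 1, stood apart from the other 4. *Gdf15*, a stress-induced member of the family, was the most abundant of these ligand genes per length. It ranged from 604 to 714 normalised counts in control and from 595 to 758 in knockdown libraries, and its log2 fold change of 0.089 (95% interval -0.023 to 0.20) did not pass the threshold. *Bmp6* had at most 8 reads in a library and *Bmp8a* at most 1, and reads of *Bmp8a* may be shared with the closely similar gene *Bmp8b*.

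Activins are dimers of β subunits, and inhibins, their antagonists, pair a β subunit with the α subunit encoded by *Inha*. Of the 3 subunit genes of the list only *Inha* had enough reads for the test, *Inhba* having 1 read in all and *Inhbb* none. *Inha* was at 302, 351, 275, 315 and 301 normalised counts in control and at 245, 272, 267, 305 and 247 in knockdown libraries. The lines overlapped, and the log2 fold change of -0.21 (95% interval -0.36 to -0.059) did not pass the threshold (adjusted p = 0.018). It passed when either non-targeting shRNA replicate 3 (-0.25, adjusted p = 0.0063) or *Creb3l1* shRNA replicate 4 (-0.26, adjusted p = 0.0048) was left out. It was smaller without non-targeting shRNA replicate 2 (-0.16, adjusted p = 0.089) and with offsets for GC content and length (-0.11, adjusted p = 0.22).

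The antagonist genes that were expressed changed in opposite directions. *Fstl3*, which encodes a follistatin-like protein that binds activin and myostatin, was at 117, 104.9, 111, 93.9 and 113 normalised counts in control and at 67.1, 73.8, 76.6, 85.3 and 67.2 in knockdown libraries. It fell by 31.4%, a log2 fold change of -0.54 (SE 0.11, adjusted p = 9.8e-05), with no overlap. *Bambi*, which encodes a decoy receptor without a kinase domain, rose from 167, 182, 229, 185 and 211 to 246, 283, 296, 261 and 263. Its log2 fold change was 0.47 (SE 0.083, adjusted p = 7.2e-06), again without overlap. *Chrd*, the gene of the extracellular BMP antagonist chordin, was higher by 17.1% (log2 fold change 0.23, adjusted p = 0.00047), but *Creb3l1* shRNA replicate 1, at 659.7, lay within the control range of 602 to 674. Follistatin (*Fst*) had 4 reads, gremlin (*Grem1*) 13 and noggin (*Nog*) none over all 10 libraries.

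Exons of *Fstl3* overlap those of *Prss57* on the opposite strand over 1157 of 2445 exon bases, those of *Acvr2a* overlap *Orc4* over 446 bases and those of *Ltbp2* overlap a non-coding gene over 764 bases. Shorter overlaps on the opposite strand, of 163 to 290 bases with each partner, were found for the called genes *Tgfb3*, *Ltbp3*, *Chrd* and *Bmpr1a*. *Tgfb2*, which was not called, had one of 124 bases. Whether the counting used the strand is not given in the sources used here, so reads of such pairs may not be fully separated. On the same strand, exons of *Smurf2* overlap those of *Gm27322* over 58 bases, and those of *Smad5* overlap *Gm27301* over 100 bases. Strand does not separate the reads of these pairs.

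Receptor genes rose or were not called. Of those tested, 3 of 4 type I and 2 of 3 type II receptor genes were called higher, against 20.6% of all genes. None of the 7 was called lower, against 20.1% of all genes, and 7 genes are too few to set them apart by this. *Tgfbr1*, the TGF-β type I receptor gene, was at 940.4, 1024, 956, 983 and 962 normalised counts in control and at 1319, 1130.2, 1242, 1218 and 1247 in knockdown libraries. The lines did not overlap, and the log2 fold change was 0.34 (SE 0.040, adjusted p = 1.8e-09). *Bmpr1a*, a BMP type I receptor gene, was at 1783, 1644, 1851, 1706 and 1744 in control and at 2240.0, 1944, 2076, 2018 and 2227 in knockdown libraries. This is a smaller increase, of 20.5% (log2 fold change 0.27, SE 0.038), also without overlap, and it was 0.16 with the offsets for GC content and length. *Acvr1b*, the activin type I receptor gene, rose by 14.7% (log2 fold change 0.20, adjusted p = 0.00012). For *Acvr1*, another type I receptor gene used by BMPs, the values were 332 ± 35.4 (SD, n = 5) and 379 ± 26.2, and the difference of 0.19 (95% interval 0.043 to 0.33) did not pass the threshold (adjusted p = 0.026).

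Of the type II receptor genes, those of the activin receptors rose. *Acvr2a* was at 509, 492, 509, 488 and 566 normalised counts in control and at 754, 641, 675, 706 and 815 in knockdown libraries. It had the largest increase of the receptor genes, 1.40-fold, or 0.49 on the log2 scale with a SE of 0.056 (adjusted p = 7.9e-09), and no overlap. *Acvr2b* was at 124, 179, 158, 142 and 140.5 in control and at 159, 177, 214, 177 and 214 in knockdown libraries. These ranges overlapped, and the call (log2 fold change 0.34, adjusted p = 0.0035) was lost when any 1 of 5 libraries was left out, with adjusted p from 0.011 to 0.018. Those libraries were non-targeting shRNA replicates 1, 4 and 5 and *Creb3l1* shRNA replicates 3 and 5. *Bmpr2*, the BMP type II receptor gene, was at 1026 ± 71.2 and 1070.5 ± 106.8 (SD, n = 5 each), a difference of 0.065 (95% interval -0.088 to 0.22) that did not pass the threshold. Per length, *Acvr2a* was the highest of the 4 type II receptor genes in both lines. Its share of their summed level was 48.7% ± 2.31 (SD, n = 5) in the control and 53.9% ± 2.05 in the knockdown libraries, that of *Bmpr2* was 30.8% ± 1.36 and 25.4% ± 1.34, and that of *Tgfbr2* was 0.202% and 0.207%.

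The receptor SMAD genes held the largest change of the 50, and it was not shared by the partner gene of the same branch. *Smad3* (ENSMUSG00000032402, chromosome 9 from 63646767 to 63757994, minus strand) was at 236, 215, 218, 192 and 238 normalised counts in control libraries. In the knockdown libraries it was at 99.2, 104.9, 113, 75.8 and 85.4. The highest knockdown library was far below the lowest control library, and the gene fell by 56.6%, a log2 fold change of -1.21 with a SE of 0.099 (adjusted p = 1.6e-13). *Smad2*, which encodes the other receptor SMAD of activin and TGF-β, was at 1402, 1364, 1370.5, 1358 and 1324 in control and at 1733, 1669.6, 1612, 1793 and 1728 in knockdown libraries. It rose by 25.3%, or 0.33 on the log2 scale (SE 0.034, adjusted p = 9.0e-11), also without overlap, and by 0.20 on that scale with the offsets for GC content and length. Per length *Smad3* was the less abundant of the pair from the start. Its share of their summed level was 21.1%, 20.0%, 20.1%, 18.3% and 22.1% in control libraries and 8.32%, 9.05%, 9.98%, 6.28% and 7.27% in knockdown libraries.

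The receptor SMAD genes of the BMP branch changed less. *Smad1* was at 842, 743, 758, 749 and 758 normalised counts in control and at 966, 923, 964, 894 and 917 in knockdown libraries. The lines did not overlap, although non-targeting shRNA replicate 1 was apart from the other control libraries, and the log2 fold change was 0.28 (SE 0.042, adjusted p = 6.3e-07). *Smad5* was at 349 ± 21.2 and 305 ± 13.6 (SD, n = 5 each), and its log2 fold change of -0.19 did not pass the threshold (adjusted p = 0.014), though the lines did not overlap. It passed without non-targeting shRNA replicate 3 (-0.21, adjusted p = 0.0077). *Smad9*, the most abundant of these per length, was at 921 ± 42.3 and 959.9 ± 60.5, a difference of 0.060 (95% interval -0.029 to 0.15) that did not pass the threshold. *Smad4*, the common SMAD gene, was at 2260.1, 2136, 2217, 2222 and 2198 in control and at 2509, 2468, 2474, 2418 and 2465 in knockdown libraries. This was a rise of 11.8% (log2 fold change 0.16, SE 0.029, adjusted p = 1.3e-05), small in size but larger than the spread between libraries.

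**Figure D3:**
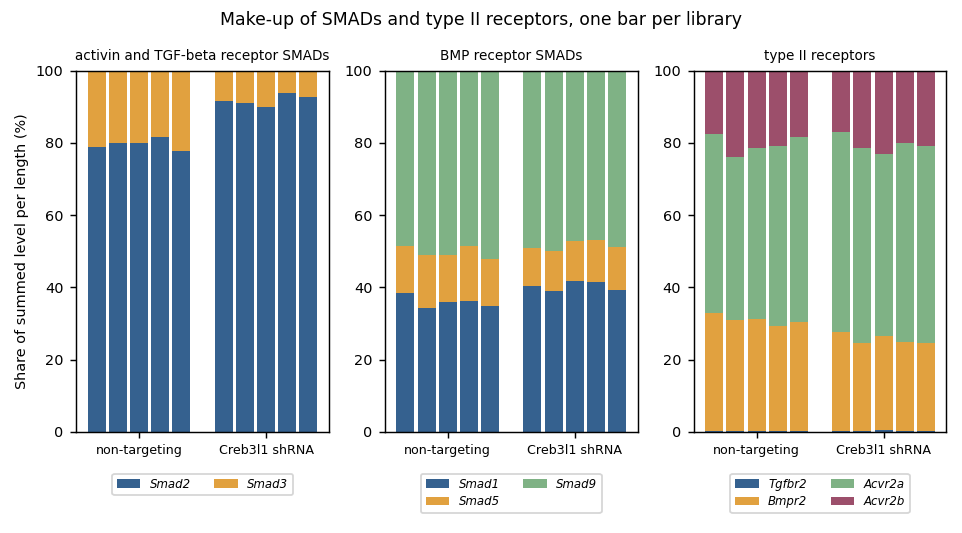
Each bar is 1 library, and its colours give the share in percent of each gene in the summed level per length of the 2 activin and TGF-β receptor SMADs (left), the 3 BMP receptor SMADs (middle) and the 4 type II receptors (right). The *Smad3* share lies between 18.3% and 22.1% in the 5 non-targeting bars and between 6.28% and 9.98% in the 5 *Creb3l1* shRNA bars.

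Of the genes listed as ligases, inhibitory SMADs and corepressors, both ligase genes, 1 of 2 inhibitory SMAD genes and 2 of 3 corepressor genes were called higher. The other corepressor gene was called lower. Among all genes tested, 20.6% were called higher and 20.1% lower. *Smurf2*, an E3 ubiquitin ligase gene whose product targets SMADs and receptors for degradation, was at 1298, 1314, 1284, 1366 and 1339.9 normalised counts in control libraries. It was at 1836, 1759.5, 1785, 1745 and 1940.2 in knockdown libraries. All of the latter were above all of the former, and the log2 fold change was 0.46 with a SE of 0.034 (adjusted p = 9.1e-15). The related *Smurf1* rose less, by 13.0% (log2 fold change 0.18, SE 0.042, adjusted p = 0.00051). *Smad7*, which encodes an inhibitory SMAD that blocks receptors of both branches, was at 151, 144, 153, 131 and 156 in control and at 163, 200.1, 199, 209 and 174 in knockdown libraries. Its log2 fold change was 0.36 (SE 0.089, adjusted p = 0.00079). *Smad6*, the other inhibitory SMAD gene and one directed mainly at the BMP branch, was at 21.9 ± 1.67 and 20.8 ± 3.78 normalised counts (SD, n = 5 each), and its log2 fold change of -0.081 had an interval of -0.53 to 0.37.

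The corepressor genes *Ski* and *Skil*, whose products hold SMAD complexes inactive on DNA, rose slightly. *Ski* was at 1358, 1508, 1402, 1239 and 1289 normalised counts in control and at 1474, 1619, 1602, 1489 and 1486 in knockdown libraries, and the control library at 1508 lay within the knockdown range. *Skil* was at 1053, 1000.3, 1069, 980.3 and 1004 in control and at 1156, 1098, 1179, 1133 and 1165 in knockdown libraries, without overlap. Their log2 fold changes were 0.18 (adjusted p = 0.0014) and 0.17 (adjusted p = 0.00024), and the call of *Skil* was lost once GC content and length were allowed for (0.044, adjusted p = 0.38). *Tgif1*, the gene of a homeodomain corepressor of SMAD2 and SMAD3, was lower instead, at 552 ± 22.6 against 667 ± 37.7 (SD, n = 5 each), a log2 fold change of -0.27 (adjusted p = 8.2e-06).

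The ID targets did not move as one. *Id1* (ENSMUSG00000042745, chromosome 2 from 152736251 to 152737410, plus strand) was at 2155, 2111, 2268, 2237 and 1914 normalised counts in control and at 2483, 2713, 2795, 2726 and 2464 in knockdown libraries. The log2 fold change was 0.30 with a SE of 0.045 (adjusted p = 1.3e-05), and the lines did not overlap. *Id3*, whose promoter window is printed above, was at 1932, 1926, 2081, 1956 and 1965 in control and at 2163, 2355, 2313, 2338 and 2229 in knockdown libraries. It rose by 15.6% (log2 fold change 0.21, SE 0.032, adjusted p = 5.9e-07), and its log2 fold change was 0.31 with the offsets for GC content and length. *Id2* was at 3784, 3707, 3781, 3652 and 3658 in control and at 3830.4, 3566, 3819.9, 3715 and 3627 in knockdown libraries, so that the ranges lay over each other. Its log2 fold change was -0.0016 with an interval of -0.057 to 0.054, an interval that lies below the changes of *Id1* and *Id3*. As a share of the summed ID level per length, *Id1* was 41.2% ± 1.43 (SD, n = 5) in the control and 44.8% ± 1.10 in the knockdown libraries, and *Id2* 34.1% ± 0.934 and 30.1% ± 1.28.

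**Figure D4:**
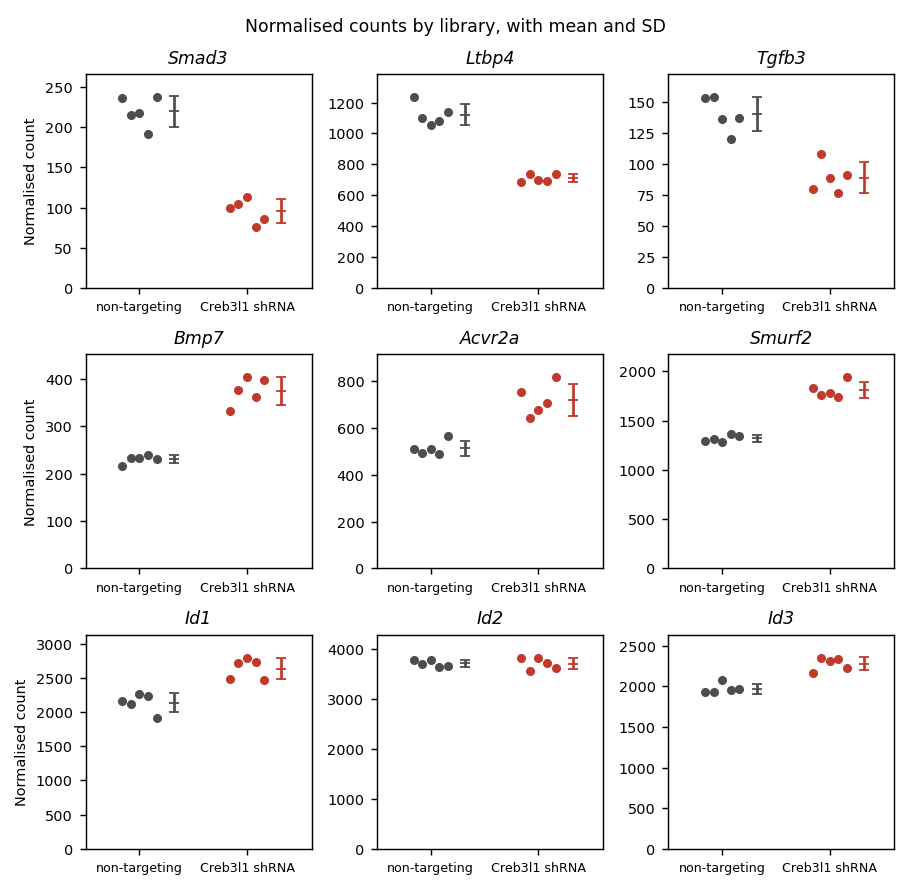
Normalised counts of 9 of the genes are shown with 1 point per library, the mean and the SD beside them, grey for non-targeting and red for *Creb3l1* shRNA, on axes that start at 0. The points of the lines are apart in 8 panels, and in the *Id2* panel they lie at the same height.

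A further 83 genes of the pathway that are not among the 50 were listed by role, and all were found in the table. Of these, 44 could be tested, and 21 (47.7%, against 40.7% of all genes) were called. The calls were 16 higher (36.4%, against 20.6%) and 5 lower (11.4%, against 20.1%), and the median log2 fold change was 0.12. Of the 20 genes listed under ligands, which include the protease gene *Bmp1*, 4 had enough reads for the test. *Gdf1* had no reads, but all of its 1349 exon bases overlap *Cers1* on the same strand. Its lack of counts therefore does not show that it was silent. Of the 5 genes named here by rule, 1 was lower. *Cdkn2b*, the gene of the cell cycle inhibitor p15 and a TGF-β target, was at 207, 264, 193, 230.0 and 218 normalised counts in control and at 121, 105.96, 129.8, 149 and 137 in knockdown libraries. Its log2 fold change was -0.79 (SE 0.095), without overlap.

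The other 4 genes of this rule rose. *Nedd4l*, which encodes a ubiquitin ligase of SMAD2 and SMAD3, rose from 1389 ± 47.3 to 2045 ± 76.5 normalised counts (SD, n = 5 each), a log2 fold change of 0.56. *Pmepa1*, a TGF-β-induced gene whose product sequesters receptor SMADs, was at 297 ± 13.7 and 413 ± 24.8 (log2 fold change 0.48). *Snai2* and *Zeb1*, genes of transcriptional repressors of epithelial genes, had log2 fold changes of 0.51 and 0.39. Of the 16 further SMAD regulator genes tested, 7 (43.8%) were called higher and 2 (12.5%) lower, against 20.6% and 20.1% of all genes. The lower genes, named after their values were seen, were *Wwp1* (log2 fold change -0.26, adjusted p = 4.3e-06), a ubiquitin ligase gene, and *Usp15* (-0.17, adjusted p = 0.00019), a deubiquitinase gene. Of the 14 further target genes tested, 4 (28.6%) were called higher and 2 (14.3%) lower. Together these are 42.9% of those tested, near the 40.7% of all genes. *Inhbe*, which encodes the activin βE subunit, was named after its values were seen. It was the most abundant ligand gene of both lists, at 30.5 RPKM in the control and 29.6 in the knockdown line, and its log2 fold change of -0.047 did not pass the threshold (adjusted p = 0.15).

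**Figure D5:**
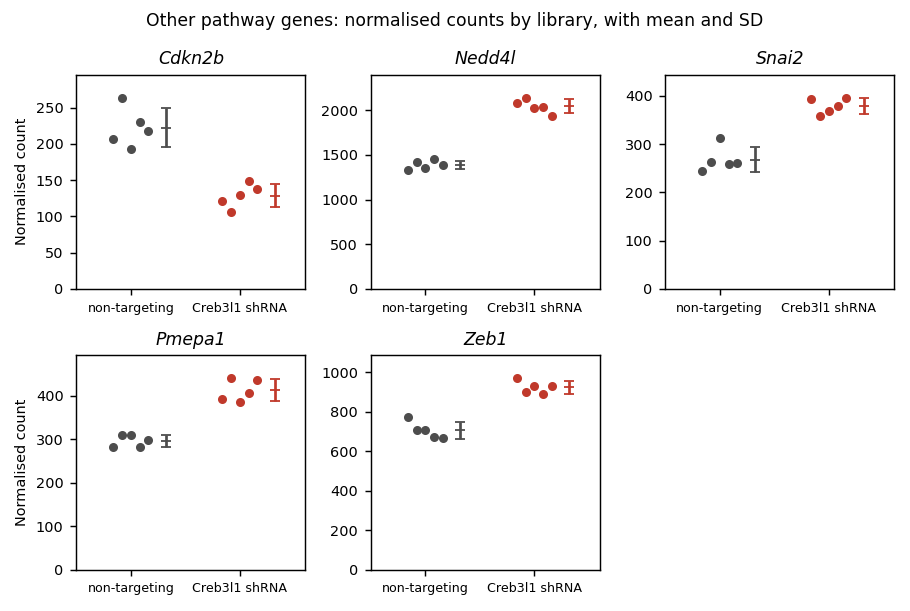
Normalised counts of the 5 pathway genes named outside the list of 50 are shown with 1 point per library, the mean and the SD, on axes that start at 0. *Cdkn2b* has its red *Creb3l1* shRNA points below the grey points, and the other 4 genes have them above.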

How the data were processed

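AtT20 RNA was analysed in 10 libraries, 5 of each line, with groups and replicate numbers (the last digit of the number in each title) taken from the labels. The authors selected poly(A) RNA with a stranded kit, trimmed the read pairs, mapped them to GRCm38 using STAR and summed them over the genes of Ensembl 97 using featureCounts. They deposited these counts, whole numbers without normalisation, which were used as they stand. Gene symbols, positions and exon lengths came from GENCODE M21 (GRCm38), matching 53706 of 53801 identifiers. The analysis ran in R 4.3.3 under edgeR 4.0.16. Genes were kept by filterByExpr (14336), scaled with TMM factors and compared by the quasi-likelihood test with a robust prior and no covariate, with Benjamini-Hochberg adjustment and the study's threshold of 0.01. Standard errors came from the F statistic. RPKM used the same effective library sizes and the union of annotated exons. Depth of 17420698 to 22205107 counts limits genes with few reads, the median log2 standard error being 0.21 in the lowest of 4 bins of genes by mean count and 0.031 in the highest.

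Alternatives were DESeq2 1.42.0, RLE size factors, library totals, 2 other filters (none, and at least 10 counts in every library), a replicate block, leaving out each library, other thresholds, and offsets for GC content and transcript length with 5 degrees of freedom each. A prior that was not robust was added after the data were seen. The pathway genes, the further list of 83 and the markers were chosen with earlier results of these data known. Values per library are given for pathway genes with an adjusted p under 0.01 and either a 1.25-fold change or a mean normalised count of 1000 or more, and for others where they help. Of the further list, the 6 largest changes among called genes with a mean of at least 100 and no overlap were taken, of which 1 is not reported here. On simulated counts for 14230 genes the test called 169 of 199 changed genes and 1 unchanged gene. A far smaller share of genes was changed there than the 40.7% called here. The simulation therefore does not give the error rate for these lines.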

Additional observations from a re-analysis of the deposited data

Results flagged for a closer look

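In each line, the lowest or highest library of each of the 35 genes was compared with the rest by Dixon's criterion at 95%. Of 70 groups, 7 passed, where chance gives about 1 in 20, or 3.5. For *Gdf11*, *Creb3l1* shRNA replicate 1 was at a normalised count of 174, while the others of its line lay from 119 to 134. The same library was low for *Acvr1*, at 333 against 387 to 398, and without it *Acvr1* passed the threshold (log2 fold change 0.23, adjusted p = 0.0069, edgeR). *Acvr1b* was at 1066 in *Creb3l1* shRNA replicate 2, against 954 to 982. In the non-targeting line, *Bmpr2* was at 899 in replicate 4 against 1051 to 1062, *Acvr2a* at 566 in replicate 5 against 488 to 509, *Smad1* at 842 in replicate 1 against 743 to 758 and *Id3* at 2081 in replicate 3 against 1926 to 1965. These 7 values fall in 6 different libraries. *Gdf11*, *Acvr1b*, *Acvr2a*, *Smad1* and *Id3* kept their call and direction when the library was left out.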

How the results depend on the processing

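The number of pathway genes called, 26, was from 25 to 28 over the 10 fits that each left out a library, and also 26 with either other filter, library totals, RLE size factors, DESeq2 and the prior that was not robust. The offsets for GC and length gave 27, and an adjusted p under 0.05 gave 30. A minimum change of 1.5-fold left 5 pathway genes, 2 higher and 3 lower, and 4 of the further list, since most changes are smaller than that. Replicate numbers did not pair the samples (correlations of deviations between libraries of the same number from -0.065 to 0.040, with 2 of 5 control libraries nearest to their own number), and a replicate block also called 26. Of the single values, *Bmpr2* turned to -0.11 and *Smad9* to -0.0080 with the offsets. *Id2* turned to 0.011 with library totals, to 0.024 with the offsets, and to 0.0070, 0.0020, 0.015 and 0.010 without non-targeting shRNA replicate 1 or 3 or *Creb3l1* shRNA replicate 2 or 5 (from -0.013 to 0.015 over all 10 such fits), and it passed the threshold in none of these. *Gdf15* (0.18) and *Smad5* (-0.29) gained a call under the offsets. The cause was not tested. Precision at this depth was too low to place *Smad6* or *Tgfb2* within narrow limits.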
